A study of Mus musculus with 6 samples.

Results

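The genes described here are 34 genes of glycolysis and of the response to low oxygen, taken as a list by what their products do, with earlier results of these data known. They fall into 4 roles: 15 glycolytic enzymes, 6 genes of transport and flux control, Hif1a with 2 of its hydroxylases, and 10 other targets of hypoxia-inducible factor (HIF). A gene was read from the probe set whose annotation gave its symbol and no other, and from the brighter probe set where a gene had several. In this way 31 of the 34 genes were found among 30176 genes with a probe set of their own. Gpi1, Gapdh and Eno1 were not analysed here, because no probe set carried their symbol alone, so the enzymes are 12 of 15.

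Bone marrow-derived macrophages (BMDMs) of adult C57BL/6J mice were measured on 6 Affymetrix Clariom D mouse arrays, 3 labelled ATF3-CKO and 3 labelled WT. ATF3-CKO mice carry floxed Atf3 and a Cre driven by the myeloid gene Lyz2, and the study's WT animals were floxed littermates without Cre, so that loss of ATF3 and presence of Cre cannot be told apart. Both groups had been differentiated with M-CSF at 20 ng/ml, had received recombinant GAS6 (rGAS6), which binds the receptor MerTK, and were collected 24 h after hypoxia/reoxygenation (HR). The study's methods describe HR as hypoxia followed by a longer reoxygenation in normal oxygen, and the 24 h may count from its start. The cells were thus back in oxygen when collected. No array here held cells without HR or without rGAS6. The comparison therefore asks how the glycolysis and HIF genes of GAS6-stimulated macrophages differed after HR when the mice were labelled as lacking ATF3, a stress-induced transcription factor, in myeloid cells. The labels call the arrays biological replicates and do not say whether each came from its own mouse. A figure legend of the study gives n = 3 mice for this comparison.

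The gene that was targeted went against the labels. Atf3 had log2 intensities of 9.20, 9.26 and 9.25 on the arrays labelled ATF3-CKO, against 8.56, 8.46 and 8.38 on the WT arrays, a difference of 0.77 (SE 0.08, adjusted p = 0.00538, limma). The sources used here do not give the position of the floxed part relative to this probe set, and a probe set outside it would check nothing. Lyz2, whose locus drives the Cre, averaged 19.42 ± 0.08 on the arrays labelled ATF3-CKO and 18.92 ± 0.21 on the WT arrays (difference 0.49, adjusted p = 0.0817). Its groups lay apart, with the arrays labelled ATF3-CKO higher and no call, and Lyz2 is no direct measure of Atf3. Every direction below rests on these labels. Of 10 macrophage markers, all lay above the median level of the arrays, among them Cd68, Csf1r and Adgre1, and their summed level, carried by Lyz2, Cd68 and Ctss, was 20.53 to 20.64 on the arrays labelled ATF3-CKO and 20.41 to 20.58 on the WT arrays (log2). Single markers differed more: Itgam was 12.3-fold lower (adjusted p = 0.000128), and Mertk (2.57-fold, 0.0499) and Cd14 (2.11-fold, 0.0225) were higher.

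Glycolysis turns glucose into pyruvate in the cytosol, and lactate dehydrogenase turns pyruvate into lactate, which lets the pathway run without oxygen. The transcription factor HIF-1 pairs the oxygen-regulated subunit HIF-1α, encoded by Hif1a, with a constant partner. Prolyl hydroxylases of the EGLN family mark HIF-1α for degradation while oxygen is present. In hypoxia the factor binds short DNA elements with the core ACGTG or GCGTG and induces many glycolytic genes together with genes of other functions, and inflammatory macrophages are known for high glycolysis.

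Across the 31 genes, 6 were lower and none was higher on the arrays labelled ATF3-CKO at an adjusted p under 0.05. The lower genes were the hexokinases Hk1 and Hk3, the phosphofructokinase Pfkp, the lactate dehydrogenase Ldha, the glucose transporter Slc2a3 and the MYC antagonist Mxi1. In the same limma fit 2.85% of all 65956 probe sets passed the threshold, 1.68% lower and 1.17% higher. Probe sets with a gene name and a level above the median were called more often, 6.54% over 17024 genes, 4.52% lower and 2.02% higher, and 29 of the 31 members were of that kind. At an unadjusted p under 0.05, 11 members were lower and 4 higher, beside 14.6% lower and 13.2% higher of those 17024 genes. Hk2 and Hk3 were the members at least 2-fold lower, and no member was 2-fold higher, beside 2.29% lower and 1.26% higher of the 17024 genes. RNA of a whole culture was measured, so fewer cells of a type and less RNA per cell cannot be told apart.

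**Figure D1:**
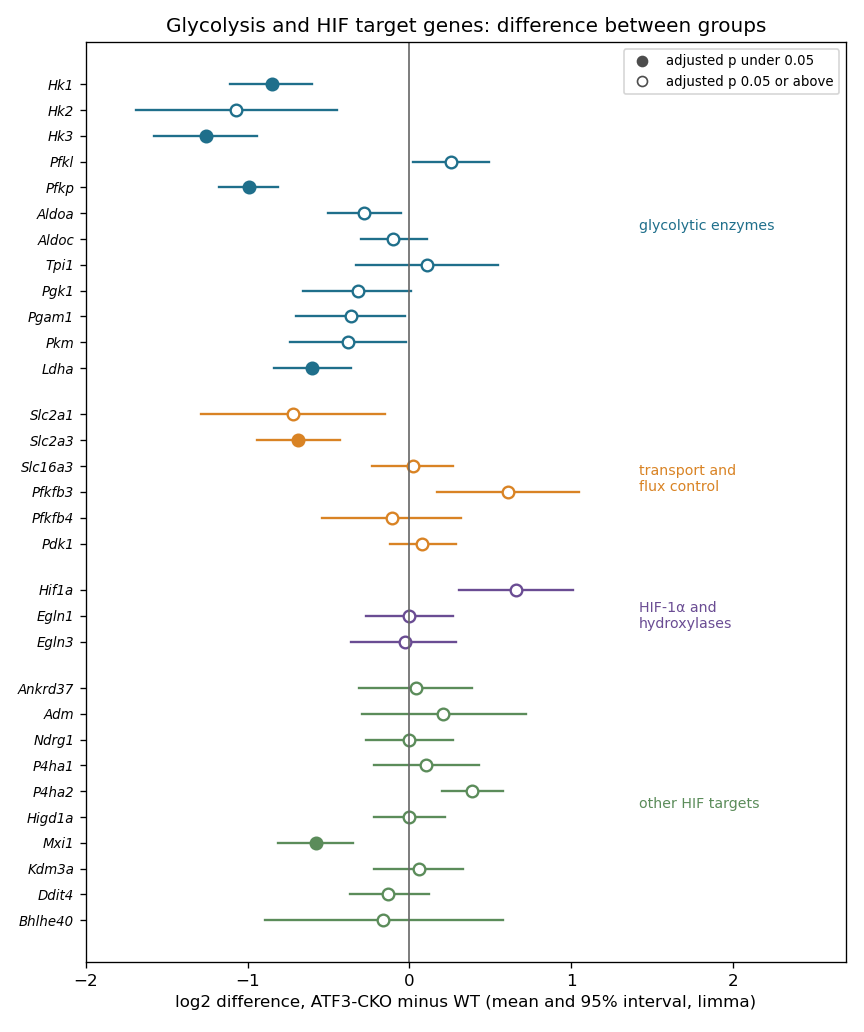
Log2 difference, ATF3-CKO minus WT, of the 31 genes (x axis), with the 95% interval from limma (3 arrays per group). Genes run down the page by role and filled points passed an adjusted p of 0.05. Filled points stand left of 0 and 4 of the 6 are enzymes, while most HIF targets lie near 0.

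The enzymes held most of the lower calls. Of 12 enzymes, 4 were called lower and none higher, and 10 had a negative difference. The median difference was -0.37 on the log2 scale, against 0.02 for the 17024 named genes above the median level. Of those 17024 genes, 4.52% were called lower and 8033 had a negative difference. The called enzymes work at the first step (Hk1 and Hk3), at the committing step (Pfkp) and at the last step of lactate formation (Ldha).

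Hexokinases phosphorylate glucose and so keep it in the cell. Hk3, the isoform typical of myeloid cells, had log2 intensities of 11.18, 11.16 and 11.07 on the arrays labelled ATF3-CKO, against 12.53, 12.57 and 12.10 on the WT arrays. The groups did not overlap, and Hk3 was 2.4-fold lower (difference -1.26, SE 0.14, adjusted p = 0.00581, limma). Hk1, the isoform of most tissues, had 7.49, 7.59 and 7.47 on the arrays labelled ATF3-CKO, against 8.39, 8.54 and 8.18 on the WT arrays, and was 1.81-fold lower (difference -0.85, SE 0.11, adjusted p = 0.0105). The groups of Hk1 lay apart too, but the call was lost without ATF3-CKO replicate 3 (adjusted p = 0.0651) or WT replicate 1 (0.0537).

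Hk2, the inducible isoform and a textbook HIF target, had the second-widest difference of the set and was not called. Its log2 intensities were 9.09, 9.43 and 8.97 on the arrays labelled ATF3-CKO, against 10.36, 9.65 and 10.70 on the WT arrays. The groups did not overlap, but WT replicate 2 lay close to the arrays labelled ATF3-CKO. The difference was -1.07 (SE 0.26, 95% interval -1.69 to -0.45), 2.1-fold, with an adjusted p of 0.0865, and without WT replicate 2 it was -1.36 with an adjusted p of 0.0139.

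Phosphofructokinase sets the pace of the pathway, and 1 of its subunits was called. Pfkp, the platelet-type subunit, had 9.18, 9.22 and 9.05 on the arrays labelled ATF3-CKO, against 10.15, 10.13 and 10.15 on the WT arrays. It was 1.99-fold lower with the smallest adjusted p of the set (difference -0.99, SE 0.08, adjusted p = 0.00175). Pfkl, the liver-type subunit, averaged 7.02 ± 0.14 on the arrays labelled ATF3-CKO and 6.77 ± 0.07 on the WT arrays (SD, n = 3 each), a difference of 0.26 with a 95% interval of 0.02 to 0.49 that did not pass the adjusted threshold (0.233). Its groups lay apart with the arrays labelled ATF3-CKO higher, and the subunits were not tested against each other. Pfkm, the muscle-type subunit, came from a further list and differed by -0.13 (95% interval -0.32 to 0.07), with groups apart and no call.

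Ldha, which makes lactate from pyruvate, had 10.78, 10.53 and 10.58 on the arrays labelled ATF3-CKO, against 11.33, 11.24 and 11.12 on the WT arrays. It was 1.51-fold lower with groups apart (difference -0.60, SE 0.10, adjusted p = 0.0298). The call did not hold with a trend in the prior variance and robust settings (0.0658), nor without ATF3-CKO replicate 2 (0.103) or 3 (0.124) or WT replicate 1 (0.115) or 2 (0.0624). Hk3 and Pfkp passed in every alternative fit.

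The 6 remaining enzymes were not called. Pkm, the pyruvate kinase, averaged 14.53 ± 0.02 on the arrays labelled ATF3-CKO and 14.90 ± 0.31 on the WT arrays, with a difference of -0.38 (95% interval -0.74 to -0.02), and WT replicate 3 at 14.55 lay level with the arrays labelled ATF3-CKO. Without that array the difference was -0.56 and passed (adjusted p = 0.0351). Pgam1, the phosphoglycerate mutase, averaged 13.85 ± 0.11 on the arrays labelled ATF3-CKO and 14.22 ± 0.27 on the WT arrays (difference -0.36, 95% interval -0.70 to -0.03). Aldoa, the muscle-type aldolase, averaged 10.70 ± 0.01 on the arrays labelled ATF3-CKO and 10.97 ± 0.15 on the WT arrays (difference -0.28, 95% interval -0.50 to -0.05). These 3 genes thus had intervals that left out 0 before adjustment. Aldoc, the aldolase isoform best known from brain, had a difference of -0.10 with an interval of -0.30 to 0.11. Tpi1, the triose phosphate isomerase, had a difference of 0.11 with an interval of -0.33 to 0.55, which leaves room for a change in either direction.

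Pgk1, the phosphoglycerate kinase, was the member with more than 1 probe set. The brighter one averaged 15.05 ± 0.24 on the arrays labelled ATF3-CKO and 15.37 ± 0.17 on the WT arrays (difference -0.32, 95% interval -0.66 to 0.01). Its identifier carries the number of chromosome 12, where RefSeq lists the pseudogene Pgk1-rs7, whereas Pgk1 itself lies on chromosome X, so the gene and that copy cannot be told apart on this probe set. The other probe set carries the letter of chromosome X and averaged 13.07 ± 0.09 on the arrays labelled ATF3-CKO and 13.29 ± 0.11 on the WT arrays, with a difference of -0.23 (95% interval -0.45 to -0.01). Neither passed the threshold.

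**Figure D2:**
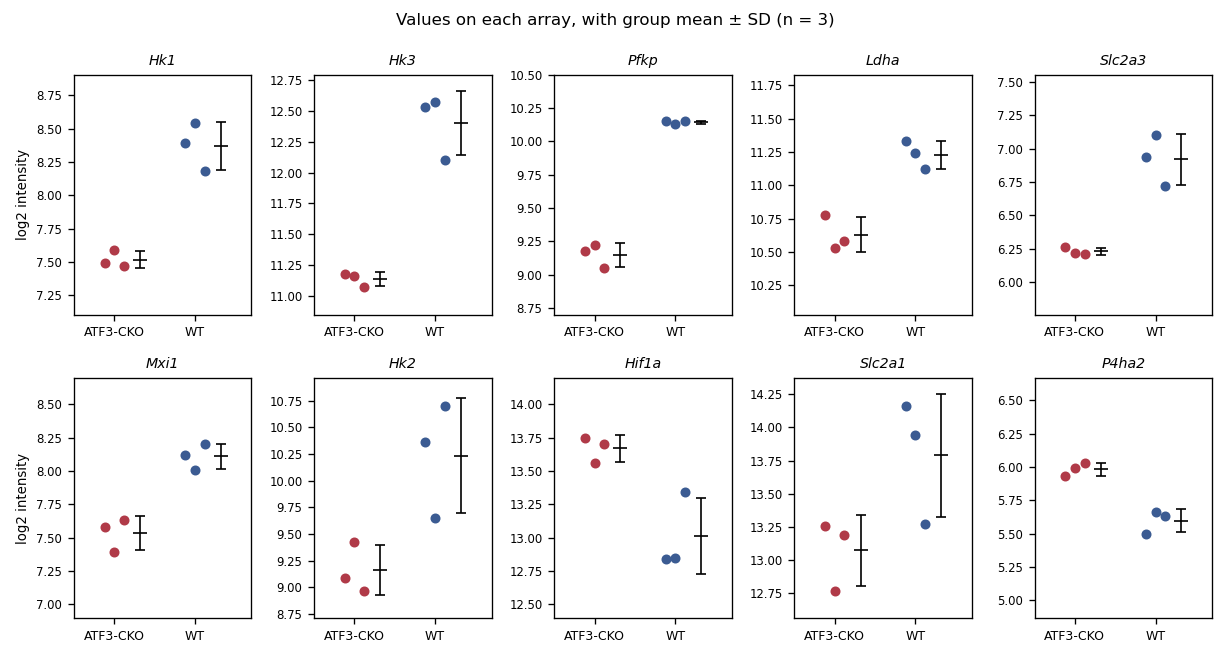
Log2 intensity (y axis, a scale of its own in each panel) of 10 genes on each of the 3 ATF3-CKO and 3 WT arrays, with the group mean ± SD in black. The first 6 panels are the called genes, whose groups do not overlap, and among the next 4 the WT arrays of Hk2 and Slc2a1 are spread widely.

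The HIF core is common in the promoters of these genes, called or not. RefSeq promoter windows (GRCm38.p6, 250 bases before to 50 after a start) were at hand for 28 of the 31 genes, as 40 windows. The core ACGTG, read on both strands, was in 24 of the 40 windows (60%), against 19.6% of all 32851 windows of that length, and ACGTG or GCGTG was in 32 (80%), against 43.8%. The genes were listed as glycolysis genes and HIF targets, so this excess may follow from how they were chosen. Some genes had several windows. Among the genes, 9 of 12 enzymes and 6 of 8 other HIF targets held ACGTG, so this match did not separate the enzymes from the other targets. The element TGACGTCA, to which factors of the ATF and CREB families can bind and whose letters contain no HIF core, was in 1 member window, that of Ldha (2.5%, against 1.79% of all windows), and TGANTCA, the AP-1 element, was in 3 (7.5%, against 7.81%). A match is a stretch of letters and says nothing of binding in these cells. The stretches below are those of 4 called genes, of Hk2 and of Pgk1, with the matches in capitals (CACGT is ACGTG read from the other strand). Ldha is shown at chr7:46845644-46845803 (plus strand), Pfkp at chr13:6648782-6648921 (minus), Hk3 at chr13:55021526-55021555 (minus), Hk2 at chr6:82774490-82774529 (minus), Mxi1 at chr19:53329328-53329367 (plus) and Pgk1 at chrX:106186935-106186984 (plus).
Ldha: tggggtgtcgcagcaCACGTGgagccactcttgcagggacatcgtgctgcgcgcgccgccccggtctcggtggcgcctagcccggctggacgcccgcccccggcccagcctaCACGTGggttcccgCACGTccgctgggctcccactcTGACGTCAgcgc
Pfkp: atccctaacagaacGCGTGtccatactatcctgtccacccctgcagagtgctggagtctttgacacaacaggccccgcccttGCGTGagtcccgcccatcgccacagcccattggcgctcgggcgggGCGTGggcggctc
Hk3: ttactacattttgaCACGTtgcctagttca
Hk2: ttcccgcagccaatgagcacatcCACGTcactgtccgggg
Mxi1: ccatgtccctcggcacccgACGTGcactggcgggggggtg
Pgk1: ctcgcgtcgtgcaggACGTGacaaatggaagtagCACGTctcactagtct

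Of the 6 genes of transport and flux control, 1 was called lower, 5 were not called, and the median difference was -0.05. Slc2a3, the high-affinity glucose transporter GLUT3, had 6.26, 6.22 and 6.21 on the arrays labelled ATF3-CKO, against 6.94, 7.10 and 6.72 on the WT arrays. The groups lay apart and Slc2a3 was 1.61-fold lower (difference -0.69, SE 0.11, adjusted p = 0.0242). The call was lost without ATF3-CKO replicate 1 (0.0673), 2 (0.0931) or 3 (0.113) or WT replicate 1 (0.0982). Slc2a1, the widely expressed transporter GLUT1 and a HIF target, averaged 13.08 ± 0.26 on the arrays labelled ATF3-CKO and 13.79 ± 0.47 on the WT arrays, a difference of -0.72 (95% interval -1.29 to -0.15, adjusted p = 0.184) with WT replicate 3 at 13.27. Without that array it was -0.98 and passed (0.0444).

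Pfkfb3 and Pfkfb4 make the sugar bisphosphate that activates phosphofructokinase. Pfkfb3 averaged 9.30 ± 0.09 on the arrays labelled ATF3-CKO and 8.70 ± 0.39 on the WT arrays, a difference of 0.61 (95% interval 0.17 to 1.05, adjusted p = 0.149). The groups lay apart with the arrays labelled ATF3-CKO higher, opposite to Pfkp. Pfkfb4 differed by -0.11 (95% interval -0.54 to 0.32). Slc16a3, which exports lactate, averaged 6.22 ± 0.08 on the arrays labelled ATF3-CKO and 6.20 ± 0.16 on the WT arrays, so that a difference beyond -0.23 or 0.27 lay outside its interval. Pdk1, a kinase that keeps pyruvate out of the mitochondrial cycle, differed by 0.08 (95% interval -0.12 to 0.29).

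Hif1a and its hydroxylases were not called. Hif1a had 13.75, 13.56 and 13.70 on the arrays labelled ATF3-CKO, against 12.84, 12.85 and 13.34 on the WT arrays. The groups lay apart, with the arrays labelled ATF3-CKO higher and WT replicate 3 nearest to them, so the transcript of the factor had a difference opposite in sign to that of most enzymes. The difference was 0.66 (SE 0.15, 95% interval 0.31 to 1.01, 1.58-fold, adjusted p = 0.0691), and it passed without WT replicate 3 (0.82, adjusted p = 0.0166). HIF-1α is controlled mainly as a protein, which these arrays do not measure.

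Egln1, the main oxygen sensor of the family, had 10.75, 10.58 and 10.60 on the arrays labelled ATF3-CKO, against 10.47, 10.61 and 10.85 on the WT arrays. Egln3, a hydroxylase that HIF itself induces, had 5.55, 5.56 and 5.74 on the arrays labelled ATF3-CKO, against 5.54, 5.47 and 5.94 on the WT arrays. The groups overlapped for both. The differences were 0.00 for Egln1 (95% interval -0.27 to 0.27) and -0.03 for Egln3 (-0.36 to 0.29).

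The 10 other HIF targets, whose products act outside glycolysis, had a median difference of 0.02, with 6 positive and 4 negative. Of the 17024 named genes above the median level, 8991 were positive and 8033 negative. Mxi1, which competes with MYC for its partner MAX, was the target called. It had 7.58, 7.39 and 7.63 on the arrays labelled ATF3-CKO, against 8.12, 8.01 and 8.20 on the WT arrays, and was 1.49-fold lower with groups apart (difference -0.58, SE 0.10, adjusted p = 0.0307). The call was lost without ATF3-CKO replicate 1 (0.0731), 2 (0.0866) or 3 (0.0907), without WT replicate 1 (0.115) or 3 (0.0581), and with trend and robust settings (0.0636).

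P4ha1 and P4ha2 encode catalytic subunits of collagen prolyl hydroxylase. P4ha2 averaged 5.99 ± 0.05 on the arrays labelled ATF3-CKO and 5.60 ± 0.09 on the WT arrays, with groups apart and higher on the arrays labelled ATF3-CKO (difference 0.39, 95% interval 0.20 to 0.58, adjusted p = 0.0585). It passed when the adjustment ran over probe sets with 1 symbol (0.0345). P4ha1 differed by 0.10 (-0.22 to 0.43), and its groups overlapped.

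The remaining targets gave overlapping groups. Ndrg1, a hypoxia- and stress-induced gene, averaged 13.34 ± 0.05 on the arrays labelled ATF3-CKO and 13.34 ± 0.20 on the WT arrays (95% interval of the difference -0.27 to 0.27). Higd1a, a mitochondrial protein of hypoxia survival, and Kdm3a, a histone demethylase, had intervals of -0.22 to 0.22 and -0.22 to 0.33. Intervals of this width hold no 2-fold change. Ankrd37, an ankyrin repeat gene, differed by 0.04 (-0.31 to 0.39). Adm, the vasodilator peptide adrenomedullin, and Ddit4, an inhibitor of mTOR signalling, had mean levels at or below the median of all probe sets and differed by 0.21 (-0.29 to 0.72) and -0.13 (-0.37 to 0.12). Bhlhe40, a transcriptional repressor, averaged 10.65 ± 0.09 on the arrays labelled ATF3-CKO and 10.80 ± 0.70 on the WT arrays, where WT replicate 2 stood at 10.03 and WT replicate 1 at 11.38, and its interval of -0.89 to 0.58 was wide.

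Set side by side, the enzymes had 4 lower calls among 12 genes and the other HIF targets 1 among 10. The median difference was -0.37 for the enzymes and 0.02 for the other targets, a gap of -0.39. With quantile normalization and with median-centring the median of the other targets was -0.04 and -0.06, and the gap was -0.39 in both. Transporters and flux control counted with the enzymes, and Hif1a and hydroxylases with the targets, gave 5 lower calls of 18 with a median of -0.34 and 1 of 13 with a median of 0.00. Groups that did not overlap were found for 7 of 12 enzymes, 6 lower and 1 higher, and for 2 of 10 other targets, 1 in each direction. Over the 17024 genes, 16.7% lay apart lower and 15.7% apart higher. These medians describe the genes measured, and the gap was not tested.

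**Figure D3:**
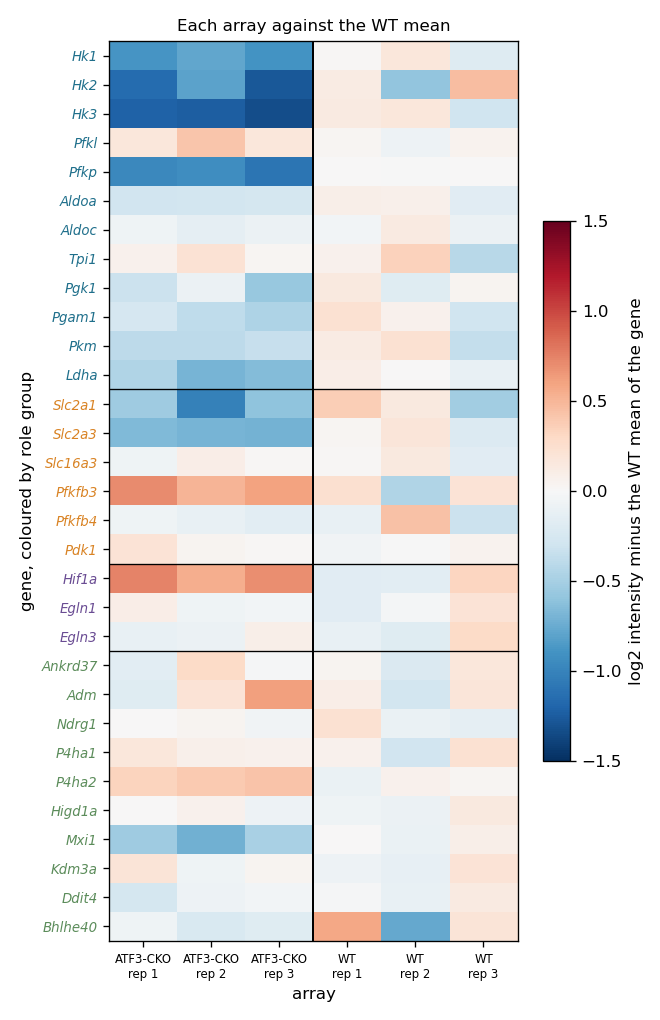
Log2 intensity of each gene on each array minus the gene's WT mean (colour, red higher, blue lower), with the 3 ATF3-CKO arrays left of the 3 WT arrays and genes running down the page as enzymes, transport and flux control, Hif1a with hydroxylases, and other HIF targets. The enzymes at the top are mostly blue on the arrays labelled ATF3-CKO, and the 3 WT arrays differ among themselves in most rows.

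The WT arrays were the more variable for these genes. The SD was larger in WT for 23 of the 31 genes (74.2%), with a median SD of 0.09 on the arrays labelled ATF3-CKO and 0.19 on the WT arrays, while over the 17024 genes it was larger in WT for 57.2% (medians 0.12 in ATF3-CKO and 0.14 in WT). The array that was lowest within WT differed by role. WT replicate 3 was the lowest WT array for 8 of 12 enzymes, and WT replicate 2 was the lowest for 8 of 10 other HIF targets. On the arrays labelled ATF3-CKO, replicate 3 was lowest for 8 of 12 enzymes. The members of a role share their arrays, so these counts describe 6 arrays and no more.

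The rest of the pathways was read from further gene lists. Their counts stand beside the 4.52% called lower and 2.02% called higher among the 17024 named genes above the median level. Of 16 further glycolytic genes measured, Eno2 alone was called, lower, and a count of 1 is near that share. The median difference of the 16 was -0.05, with 10 negative and 6 positive, so the enzyme median of -0.37 was not seen in this list. Of the 16, 5 lay at or below the median level. Eno2, the neuron-type enolase, had 6.03, 6.16 and 6.01 on the arrays labelled ATF3-CKO, against 6.96, 6.87 and 6.56 on the WT arrays (difference -0.73, SE 0.12, 1.66-fold, adjusted p = 0.0278). Its call was lost when any single array other than WT replicate 3 was left out (adjusted p 0.0606 to 0.123). Slc16a1 had the widest difference of the 16 (-0.89, 1.85-fold lower, groups apart) and missed the threshold (adjusted p = 0.0564). Groups lay apart lower for 6 of the 16 and higher for 2. Of 6 genes of the pentose phosphate pathway and 12 of pyruvate entry into mitochondria, none was called by limma, with 1 and 5 lower at an unadjusted p under 0.05. Their median differences were -0.07 and -0.24, with 5 of 6 and 10 of 12 negative. Groups lay apart, lower, for 1 and 5 of them. Over the 17024 genes, 14.6% were lower at that unadjusted p and 16.7% lay apart lower. Among 11 glycogen genes 2 were lower. Ugp2, which makes the sugar nucleotide for glycogen, had 11.02, 10.54 and 11.04 on the arrays labelled ATF3-CKO, against 12.28, 12.08 and 12.25 on the WT arrays, a 2.53-fold difference (-1.34, SE 0.15, adjusted p = 0.00637). Pygl, a glycogen phosphorylase, averaged 8.22 ± 0.08 on the arrays labelled ATF3-CKO and 8.90 ± 0.10 on the WT arrays (SD, n = 3 each), with groups apart (difference -0.67, SE 0.09, adjusted p = 0.0119), and missed the threshold without ATF3-CKO replicate 2 (0.0548). The other 9 glycogen genes were not called, among them the glycogen synthase Gys1 (difference 0.06), and the median of the 11 was 0.01.

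Of 33 further genes of the HIF pathway, 3 were higher, 1 was lower, and the median difference was 0.01. Vegfa, the angiogenic growth factor, had 10.49, 10.40 and 10.43 on the arrays labelled ATF3-CKO, against 9.63, 9.77 and 9.92 on the WT arrays (difference 0.67, SE 0.09, adjusted p = 0.0164). Epas1, which encodes HIF-2α, had 7.89, 8.14 and 8.10 on the arrays labelled ATF3-CKO, against 7.34, 6.70 and 7.27 on the WT arrays (difference 0.94, SE 0.18, adjusted p = 0.0431). Hmox1, the haem-degrading enzyme, had 18.52, 18.52 and 18.53 on the arrays labelled ATF3-CKO, against 18.00, 17.98 and 18.04 on the WT arrays (difference 0.52, SE 0.07, adjusted p = 0.0144). These 3 genes stood above WT while the called enzymes stood below it. Ccng2, an unusual cyclin linked to growth arrest, had 7.64, 7.54 and 7.58 on the arrays labelled ATF3-CKO, against 8.31, 8.24 and 8.47 on the WT arrays (difference -0.75, SE 0.09, adjusted p = 0.00864). The calls of Vegfa and Hmox1 were lost when any single ATF3-CKO array or WT replicate 1 was left out (adjusted p 0.0572 to 0.0834 and 0.0505 to 0.0788), and the call of Ccng2 without ATF3-CKO replicate 3 (0.0554). The call of Epas1 was lost when any single array other than WT replicate 2 was left out (0.0526 to 0.156), and those of Epas1 (0.0504) and Hmox1 (0.0576) with quantile normalization.

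**Figure D4:**
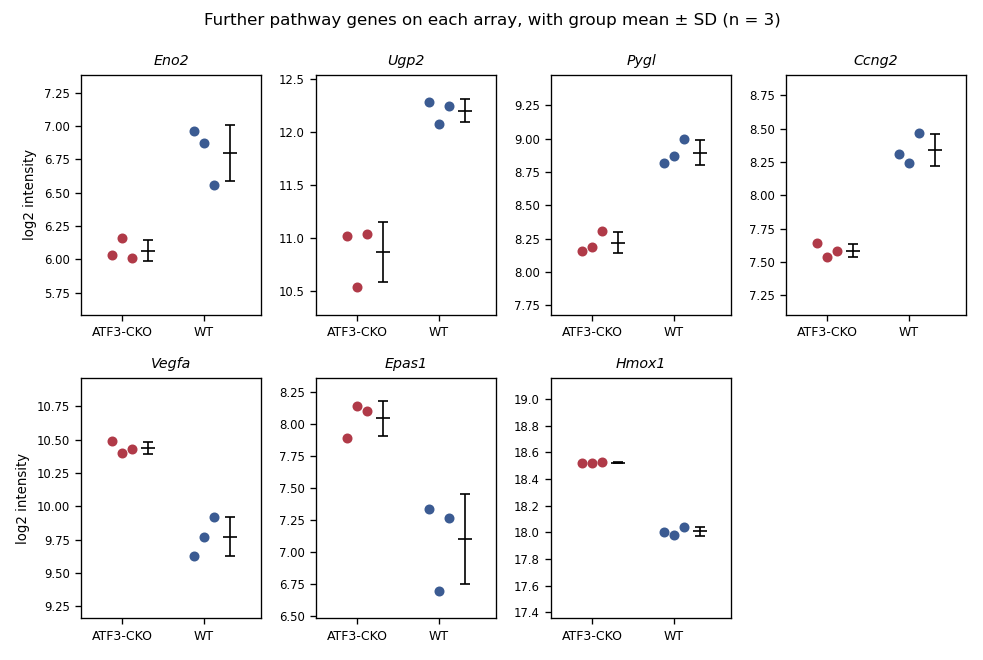
Log2 intensity (y axis, a scale of its own in each panel) of the 7 further pathway genes that were called, on each of the 3 ATF3-CKO and 3 WT arrays, with the group mean ± SD in black. Eno2, Ugp2, Pygl and Ccng2 are lower and Vegfa, Epas1 and Hmox1 higher on the arrays labelled ATF3-CKO, with no overlap between groups.

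Marker genes of other cell types and states also differed between the labels, in both directions. Of 15 neutrophil markers, 6 were called lower (S100a8, S100a9, Ltf, Ngp, Camp and Lcn2, 1.84-fold to 35.1-fold) and 9 were not called. Among the uncalled, Csf3r and Mmp8 had differences of 0.76 and 0.61 (adjusted p = 0.102 and 0.125). Retnlg and Cxcr2 had differences of -0.98 and -0.50 (0.0589 and 0.129), with groups apart. Elane, Mpo and Ly6g were near or below the median level in both groups, and Ly6g lay apart lower (-0.30). Of the 15 differences 12 were negative and 3 positive, and groups lay apart lower for 9 and higher for 2. The summed level, carried by S100a8, S100a9 and Ngp, was 11.86 to 13.87 on the arrays labelled ATF3-CKO and 16.81 to 17.49 on the WT arrays. Of 6 monocyte markers, Ly6c2 (17.6-fold) and F10 (3.06-fold) were lower, and Ccr2, Vcan, Plac8 and Cx3cr1 differed by -0.01 to 0.11. The summed level of 9.44 to 10.74 in ATF3-CKO against 13.99 to 14.10 in WT mostly reflects Ly6c2.

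Of 9 osteoclast markers, Acp5, Ctsk, Mmp9 and Itgb3 were lower, by 5.89-fold to 8.5-fold. The summed level (18.36 to 18.54 in ATF3-CKO against 18.66 to 18.85 in WT) was that of the much brighter Atp6v0d2, which was not called. Of 5 dendritic cell markers, Itgax was lower (5.75-fold) and set the summed level (12.19 to 12.32 in ATF3-CKO against 14.10 to 15.13 in WT), and the other 4 differed by 0.03 to 0.26 without a call. Of 9 proliferation genes 6 were called lower (Mki67, Top2a, Ccnb2, Kif11, Cenpf and Plk1, 1.69-fold to 7.21-fold). All 9 differences were negative with groups apart, while 16.7% of the 17024 named genes above the median level lay apart lower. The summed level was 8.99 to 9.49 in ATF3-CKO against 11.06 to 11.90 in WT. Of 5 endothelial markers, Kdr was higher (8.43-fold) and Cdh5 (1.88-fold) and Vwf (1.85-fold) were lower, with a summed level of 9.96 to 10.17 in ATF3-CKO against 9.26 to 9.67 in WT. None of 6 fibroblast markers was called by limma, with 2 higher at an unadjusted p under 0.05, and all 6 differences were positive, 0.03 to 1.33 (summed level 8.35 to 9.87 in ATF3-CKO against 7.88 to 8.41 in WT). The part of these genes in the lower Hk3, Pfkp, Hk1, Ldha, Slc2a3 and Mxi1 was not tested.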

How the data were processed

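Total RNA of 3 ATF3-CKO and 3 WT macrophage cultures was measured on Clariom D mouse arrays (Affymetrix) per the labels, while the study's methods name a Clariom S array. The authors deposited log2 intensity values made by RMA, the robust multichip average, with global scaling in the Expression Console of Affymetrix. The sources used here give no versions and no annotation release. RMA normalizes between arrays and compresses low values, so folds of dim genes are understated. The deposited array medians still ran from 4.22 to 4.42. Of 72688 probe sets, 6732 controls were left out. The values ran from 1.79 to 19.93, the median was 4.32, and the 23 background controls had a median of 2.74. No read depth applies, and 3 arrays per group limit the precision. Within groups arrays correlated at 0.993 to 0.997, between groups at 0.988 to 0.992.

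Log2 values of 65956 probe sets were fitted with limma 3.58.1 (lmFit, eBayes, two-sided, group only, ATF3-CKO minus WT) in R 4.3.3, with Benjamini-Hochberg adjustment over all of them and a threshold of 0.05. Adjusted p-values in the text are from limma. An exact permutation test of 3 against 3 cannot reach that threshold and was not used. A fold of 2 was counted apart, after the study's methods. Of the probe sets, 30638 had 1 symbol, 2176 several and 33142 none. P-values measure the spread between arrays, whose separate origin the labels do not state and for which the study gives n = 3 mice. The members, role groups and further lists were chosen with earlier results of these data known. Every member is given, with values on each array for members past the threshold or past a 2-fold difference and for Hif1a, Egln1 and Egln3; of the further lists, the genes past the threshold are named. Motifs were counted on both strands. The fit was tested on simulated data. Alternatives were quantile normalization, median-centring, filters on level and on symbols, the replicate number as a block, trend and robust settings, array weights, the mean of a gene's probe sets, leaving out each array and, chosen after seeing the data, the other Pgk1 probe set.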

Additional observations from a re-analysis of the deposited data

How the results depend on the processing

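No result reversed among the members that were called. Hk3 and Pfkp passed in every fit (leaving out each array gave adjusted p 0.00207 to 0.043 and 0.00572 to 0.0154). The 31 genes had 6 lower calls under quantile normalization, median-centring, the level filter, the symbol filter and the mean of probe sets, and 4 with trend and robust settings. Array weights gave 10 lower and 2 higher members, with an enzyme median of -0.50, and 3119 higher and 2284 lower probe sets. That fit leaned on WT replicate 1, with a weight of 2.99, against 0.698 and 0.553 for WT replicates 2 and 3. The ATF3-CKO weights ran from 0.569 to 1.74. The added higher members were Hif1a (adjusted p = 0.0112) and P4ha2 (0.0153), and the added lower ones Hk2 (0.0168), Aldoa (0.0472), Pgam1 (0.0484) and Slc2a1 (0.0419). The symbol filter and the mean of probe sets, which test fewer features, each gave 1 higher member, P4ha2, and 266 and 214 features at least 2-fold higher, against 777 in the fit over all probe sets. Median-centring, with a median difference of -0.03 over all probe sets against 0.06, gave 447 higher and 1297 lower probe sets, against 773 and 1108. Without 1 array, lower members numbered 2 to 7 and higher ones 0 to 1, with 3 lower without ATF3-CKO replicate 2, 2 without ATF3-CKO replicate 3 and 2 without WT replicate 1. Probe sets then numbered 141 to 982 higher and 402 to 1044 lower. At 2-fold there were 531 to 1110 higher and 536 to 612 lower. Medians ran from -0.53 to -0.28 for enzymes, -0.17 to 0.09 for transport and flux control, -0.09 to 0.11 for Hif1a with hydroxylases and -0.05 to 0.10 for other targets, and the gap from -0.63 to -0.33. Further glycolytic genes had 2 lower under median-centring, the level filter, the symbol filter and the block, 3 with array weights, and 0 to 2 without 1 array. Further HIF genes had 1 higher under quantile normalization and 3 lower with array weights, and 0 to 3 higher and 0 to 2 lower without 1 array. Pyruvate entry had 1 lower with array weights, and glycogen genes 1 to 2 lower without 1 array. The cause of these shifts was not tested. Of 25 members not called, 11 changed sign in some fit. The other Pgk1 probe set left the enzyme median at -0.37.

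Arrays with the same replicate number had correlations of deviations of 0.03, -0.09 and -0.07 over all probe sets. With 3 arrays per group these values cannot show whether such arrays shared a mouse, a day or a batch. With the replicate number as a block, 3 members were lower (Hk1, Hk3 and Pfkp), since Ldha (0.0538), Slc2a3 (0.054) and Mxi1 (0.0528) missed the threshold, 515 probe sets were higher, further glycolytic genes had 2 lower and further HIF genes 0 higher.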
